A study of Rattus norvegicus with 372 samples.

Results

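The immediate early genes described here were the transcription factors Fos, Fosl1, Jun, Junb, Egr1, Myc and Nr4a1 and their companions Ier2, Ier3 and Dusp1. They were taken by symbol from the probe names of the TempO-Seq whole-transcriptome (WT) assay, in which 10 of 20946 genes carried these names, each read by 1 probe. TempO-Seq ligates a pair of detector oligos on an RNA directly in the cell lysate and counts the ligated products by sequencing. After a filter on low counts (a mean of at least 10 reads per well), 9 of the 10 members were among the 10191 genes tested, and the member left out was Nr4a1. The smaller S1500+ surrogate (ST) assay held probes for 9 members, all but Dusp1, and was used as a check.

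Primary hepatocytes of male Wistar rats were kept between layers of collagen in multiwell plates, and the age of the animals was not given in the sources used here. Wells received 1 of 14 chemicals, each at a low and a high concentration, for 24 h in medium with 0.5% dimethyl sulfoxide (DMSO). The chemicals, with low and high concentrations, were acetaminophen, caffeine, isoniazid and valproic acid (each at 400 and 10000 µM), chloramphenicol (18 and 450 µM), diclofenac (16 and 400 µM), doxorubicin (0.08 and 2 µM) and indomethacin (12 and 300 µM). The others were ketoconazole (0.6 and 15 µM), naproxen (80 and 2000 µM), ranitidine (160 and 4000 µM), simvastatin (2.4 and 60 µM), sulfasalazine (4 and 100 µM) and WY14643, a PPARα agonist (8 and 200 µM). All wells, controls included, shared a medium with 100 nM dexamethasone, a glucocorticoid, and 10 ng/mL epidermal growth factor (EGF). Controls were vehicle wells (DMSO) and culture medium wells without DMSO, with 3 wells of each in batch 1 and 6 in batch 2. Each batch filled 2 plates, and the controls of batch 1 all sat on 1 of them. The other plate of batch 1 held acetaminophen, chloramphenicol, indomethacin, ketoconazole, sulfasalazine and WY14643 and no control wells, so for these 6 chemicals plate and treatment cannot be told apart in batch 1. Each batch came from 1 rat and each treatment had 3 wells per batch, so wells of a batch repeat the treatment on cells of 1 animal, and only the 2 batches differ in animal.

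Immediate early genes are transcribed within minutes of a growth factor, stress or injury signal, without new protein synthesis, and their RNAs usually decay fast. Fos and Jun family proteins pair to form the AP-1 transcription factor, and in liver the group is known for its burst after partial hepatectomy and during the isolation of hepatocytes. EGF acts on these genes through its receptor and the ERK kinases, and Dusp1 encodes a phosphatase that switches such kinases off. The wells here were lysed after 24 h, so the values are levels at that time and not the first burst.

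Sequencing depth was 2709504 to 8948654 reads per WT well in batch 1 and 2289425 to 8975207 in batch 2. Hepatocyte markers were abundant, at a summed 37207 to 44816 CPM (reads scaled to a common library total) in the vehicle wells and 6996 to 45021 CPM in the wells at high concentrations, and all 8 were detected in every well. Summed Kupffer cell and leukocyte markers (10 genes) ran from 102 to 177 CPM in vehicle and 47.8 to 277 CPM at high concentrations, stellate and fibroblast markers (7 with a probe) from 35.1 to 169 and 3.38 to 177 CPM, and biliary markers (5 genes) from 33.1 to 49.0 and 4.36 to 74.2 CPM. Endothelial markers (7 genes) summed to at most 3.81 CPM in vehicle and 6.59 CPM at high concentrations. Of the biliary markers Epcam and Sox9 were read in every well, while Krt19, Cftr and Krt7 were at 0 in 84, 155 and 182 wells. Of the endothelial markers Cdh5 and Pecam1 were at 0 in 12 and 14 wells, and the other 5 in 51 (Kdr) to 151 (Tie1). In whole lysates, fewer cells of a type and less RNA per cell cannot be told apart, and the part of either in the results below was not tested.

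In 1 well some of the immediate early genes stood apart, the well labelled replicate 1 of 400 µM diclofenac in batch 2. It held 193 CPM of Fos, against 6.94 and 4.48 CPM in the other wells of that treatment and batch. Ranked by how far that well exceeded the other wells of its group on a log2(CPM + 1) scale, Fosb, Fos, Hspa1a and Egr1 were ranks 1, 2, 3 and 4 of 10191 genes, and Junb was rank 15. Dusp1, Fosl1, Ier2 and Jun were ranks 100 to 232, while Myc and Ier3 were not raised there (differences of −0.0055 and −0.36). Several genes induced by interferon were also among the first 15 ranks, such as Isg15, Oasl, Cxcl11, Oas1b, Cxcl10, Usp18 and Irf7. The ST library of the same lysate read Fos at 657 CPM, against 27.8 and 17.9 CPM. Calls that change without it are given below.

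Promoter sequences (RefSeq, build GRCr8) were at hand for Fosl1, Junb, Egr1, Ier2, Nr4a1 and Dusp1. A search of both strands, over 250 bases before to 50 bases after the start of transcription, found the cyclic AMP response element TGACGTCA in Ier2, starting 66 bases upstream, and in Dusp1, starting 124 bases upstream. This motif stood in 1.83% of 33469 rat promoters of the same length. The serum response element core, the CArG box, was found at 105 and 83 bases upstream in Egr1 and in 1.64% of all promoters. The AP-1 site TGACTCA, held by 4.63% of all promoters, was in none of these 6 windows. The stretch from 150 to 31 bases upstream is shown for both members with the cyclic AMP response element, 5′ to 3′ on the plus strand with the motif in capitals, since their levels are described below. Ier2 lies at chr19:40399223-40399342 and Dusp1 at chr10:17184703-17184822.
Ier2: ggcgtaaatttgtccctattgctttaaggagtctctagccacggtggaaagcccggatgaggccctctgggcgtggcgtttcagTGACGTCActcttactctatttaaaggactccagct
Dusp1: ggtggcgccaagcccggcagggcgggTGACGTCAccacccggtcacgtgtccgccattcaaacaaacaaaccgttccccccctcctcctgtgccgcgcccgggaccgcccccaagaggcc

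At high concentrations these genes fell far more often than they rose. Of 126 pairs of a member and a chemical (9 members by 14 chemicals), 71 were lower than in vehicle and 14 were higher, which is 56.3% and 11.1% of the pairs. Over all genes tested and the same 14 comparisons, 25.5% of tests were lower and 25.4% higher. The marker lists moved too: 58.0% of pairs were lower for the 8 hepatocyte markers, 56.1% for the 7 Kupffer cell and leukocyte markers tested, 64.3% for 2 stellate and fibroblast markers and 32.1% for 2 biliary markers. A fall of this frequency was thus also seen in lists outside the members, and the part of cell composition or hepatocyte state in it was not tested. The median L2FC (log2 fold change against vehicle, with batch as a term) was −0.51 for the members and 0.0025 for all genes. A call here means an adjusted p under 0.05 in edgeR's quasi-likelihood test with Benjamini-Hochberg adjustment over all genes of that comparison.

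Without the diclofenac well that stood apart, 73 pairs were lower and 17 higher. Besides diclofenac itself, 5 pairs at high concentrations were called only without it. Those higher were Egr1 with 10000 µM valproic acid (L2FC 0.33, adjusted p = 0.0453), Fos with 2 µM doxorubicin (0.64, adjusted p = 0.0358), Junb with 4000 µM ranitidine (0.46, adjusted p = 0.0421) and Myc with 300 µM indomethacin (0.38, adjusted p = 0.0380). Fos with 450 µM chloramphenicol was lower (−0.85, adjusted p = 0.00618). With all wells their adjusted p were 0.133, 0.181, 0.0580, 0.0679 and 0.0920, in the same order.

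Most of these calls had the same direction in both rats. Of the 85 calls, 83 had the same sign in batch 1 and batch 2 fitted apart and 53 were called in each batch by itself. The calls were made on both batches together, which favours pairs of the same sign, and sign agreement over all genes is not given here. When the 3 wells of each rat were summed, so that each rat counted as 1 sample, 56 were called. In 59 pairs every treated well of both batches was below every vehicle well of its batch, and in 8 pairs every one was above, which is beside 17.3% below and 13.0% above over all genes tested and the same treatments, by the same comparison of CPM. All comparisons of a batch share its vehicle wells, so they are not independent of each other.

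**Figure D1:**
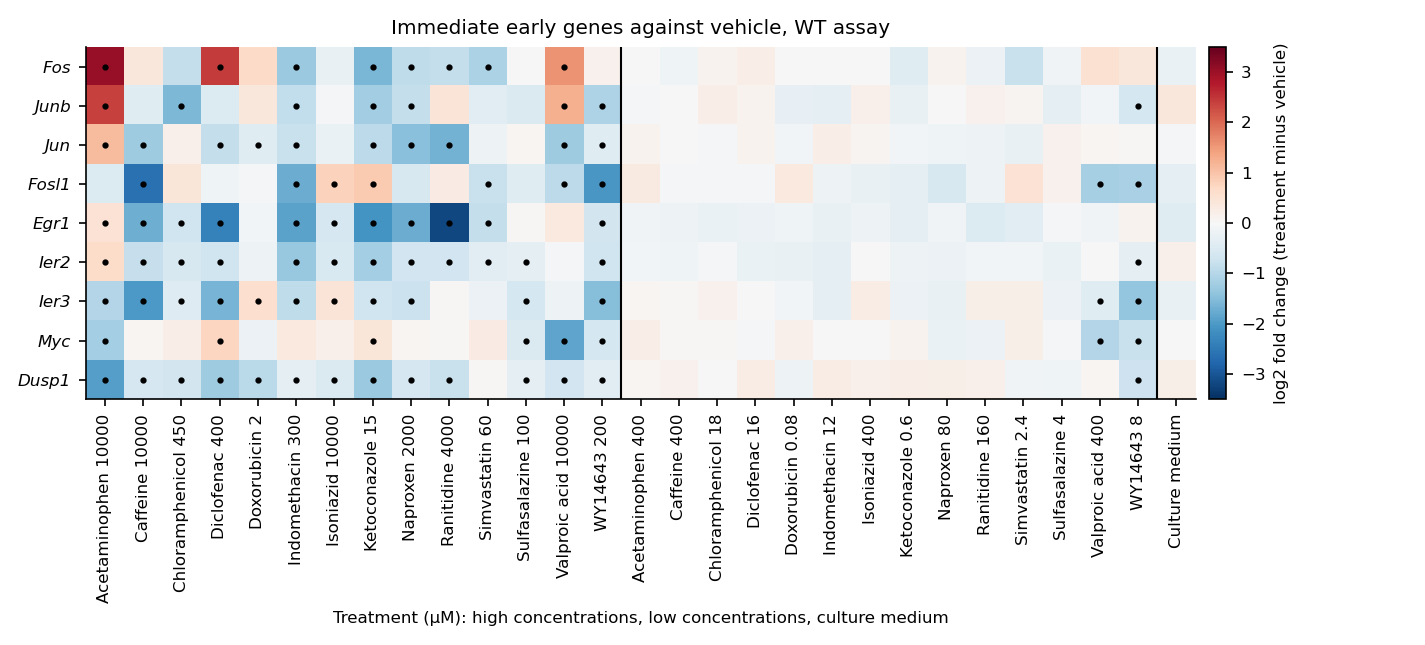
L2FC against vehicle for the 9 tested members (rows) under the 28 treatments and in culture medium (columns, high concentrations first), with blue for lower, red for higher and a dot for an adjusted p under 0.05. At high concentrations 71 of 126 cells carry a dot on the lower side and 14 on the higher side, and at low concentrations 9 do, all lower, with WY14643 and valproic acid.

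By chemical, the members fell most widely with indomethacin and WY14643. With 300 µM indomethacin 8 of 9 members were lower, where 27.6% of all genes were. With 200 µM WY14643 8 were lower, against 25.4% of all genes, with Fos not called (L2FC 0.15 ± 0.36 SE). Naproxen at 2000 µM lowered 7 members, against 26.2% of all genes.

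Caffeine, chloramphenicol, ranitidine, simvastatin and sulfasalazine also had calls in 1 direction. Caffeine at 10000 µM lowered 6 members where 31.6% of all genes were lower, and 4000 µM ranitidine lowered 5 where 33.9% were. Chloramphenicol at 450 µM lowered 5 members, against a background of 17.2%. Simvastatin at 60 µM lowered 4, which were Egr1, Fos, Fosl1 and Ier2, against 12.5%. Sulfasalazine at 100 µM lowered Dusp1, Ier2, Ier3 and Myc, against 19.6%, although Ier2 had an L2FC of 0.095 in batch 1 and −0.72 in batch 2. None of these 5 treatments had a member called higher with all wells, and Junb with ranitidine was called higher without the diclofenac well.

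The other 6 chemicals moved members both ways. With 10000 µM acetaminophen Egr1, Fos, Ier2, Jun and Junb were higher (5 of 9, with 38.8% of all genes higher) and Dusp1, Ier3 and Myc were lower (3 of 9, with 40.1% lower). With library size in place of TMM scaling 4 were higher and 4 lower, since Egr1 was no longer called and Fosl1 was called lower (L2FC −0.89, adjusted p = 0.00433). With 10000 µM valproic acid Fos and Junb were higher, beside 33.5% of all genes, and Dusp1, Fosl1, Jun and Myc were lower, beside 33.2%. Library size scaling made that 4 higher and 4 lower, as Egr1 was then called higher and Ier2 turned from −0.04 (adjusted p = 0.768) to 0.24 (adjusted p = 0.0351). With 400 µM diclofenac Fos and Myc were higher, beside 36.0% of all genes, and 5 members were lower, beside 35.8%. The Fos call there is the one that rests on the well described above.

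With 15 µM ketoconazole Fosl1 and Myc were higher, where 25.0% of all genes were, and the other 7 were lower, where 26.3% of all genes were. Isoniazid at 10000 µM raised Fosl1 and Ier3, with 17.4% of all genes higher, and lowered Dusp1, Egr1 and Ier2, with 17.3% lower. Doxorubicin at 2 µM had the fewest calls, with Ier3 higher beside 9.07% of all genes and Dusp1 and Jun lower beside 10.3%. The Jun call rested on batch 2, with an L2FC of 0.032 in batch 1 and −0.88 in batch 2.

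Among the AP-1 genes, Fos, a partner of Jun proteins whose RNA is known for its short life, had the largest L2FC of the members. Its vehicle wells read 6.78, 10.7 and 8.57 CPM in batch 1 and 4.40 to 8.71 CPM (median 6.85) in batch 2, on only 30 to 59 reads per well. With 10000 µM acetaminophen Fos read 67.0, 84.5 and 72.3 CPM in batch 1 and 29.7, 32.4 and 29.5 CPM in batch 2. All of these wells were above all vehicle wells, with an L2FC of 3.05 ± 0.33 (SE, adjusted p = 4.64e-16). With 10000 µM valproic acid it read 32.4, 27.4 and 29.9 CPM in batch 1 and 26.4, 26.2 and 25.7 CPM in batch 2. Again no well overlapped with vehicle, and the L2FC was 1.59 ± 0.33 (adjusted p = 1.05e-05).

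The call of Fos as higher with 400 µM diclofenac rested on 1 well. Batch 1 read 10.995, 10.8 and 6.69 CPM and batch 2 read 193, 6.94 and 4.48 CPM, so that 5 of 6 wells lay near vehicle. The L2FC was 2.44 ± 0.33 (adjusted p = 2.10e-11) with all wells and −0.26 ± 0.26 (adjusted p = 0.378) without that well. Fos was lower with 15 µM ketoconazole, at 4.36, 4.00 and 4.59 CPM in batch 1 and 0.695, 1.42 and 1.29 CPM in batch 2. These wells were all below vehicle (L2FC −1.61 ± 0.42, adjusted p = 0.000707). With 300 µM indomethacin the L2FC was −1.29 ± 0.42 (adjusted p = 0.00527), and with 60 µM simvastatin it was −1.10 ± 0.40 (adjusted p = 0.0340), the latter with overlapping wells in batch 2. Neither was called with wells summed per rat (adjusted p = 0.0852 and 0.297) or by the ST assay (adjusted p = 0.150 and 0.157). Naproxen and ranitidine were just inside the threshold for Fos (adjusted p = 0.04995 and 0.0485) and were not called per rat either (adjusted p = 0.236 and 0.253).

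Junb, another Jun family protein, rose in the same 2 treatments as Fos. Vehicle wells read 7.14, 7.46 and 7.68 CPM in batch 1 and 7.96 to 9.44 CPM (median 8.73) in batch 2. Acetaminophen at 10000 µM gave Junb wells of 29.7, 27.97 and 23.8 CPM in batch 1 and 38.7, 52.7 and 23.4 CPM in batch 2. All wells were above vehicle, with an L2FC of 2.39 ± 0.21 (adjusted p = 9.57e-22). With 10000 µM valproic acid the wells read 19.3, 15.8 and 15.2 CPM in batch 1 and 41.9, 25.3 and 24.2 CPM in batch 2. These too were all above vehicle (L2FC 1.25 ± 0.21, adjusted p = 6.47e-08).

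Junb was lowest with 450 µM chloramphenicol, at 3.08, 3.83 and 3.95 CPM in batch 1 and 2.55, 2.62 and 2.63 CPM in batch 2. No well overlapped with vehicle, and the L2FC was −1.56 ± 0.26 (adjusted p = 5.03e-07). Ketoconazole at 15 µM gave −1.23 ± 0.26 (adjusted p = 1.63e-05) and 200 µM WY14643 gave −1.07 ± 0.25 (adjusted p = 0.000146). With 400 µM diclofenac Junb read 17.3 CPM in the well that stood apart, against 5.83 and 4.00 CPM beside it. Its L2FC of −0.49 ± 0.24 missed the threshold (adjusted p = 0.0562) with that well and was −1.13 ± 0.25 (adjusted p = 3.01e-05) without it.

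**Figure D2:**
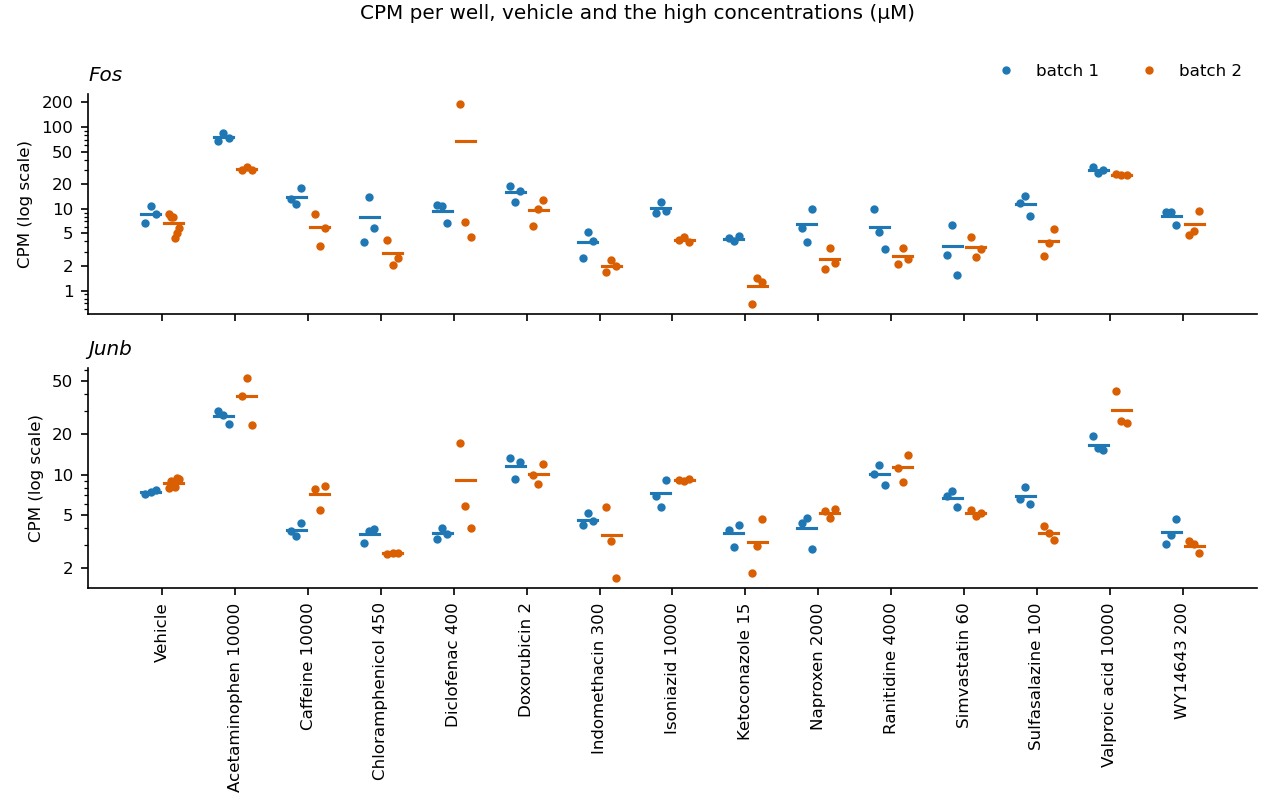
CPM of Fos and Junb in every WT well (log axis) for vehicle and the 14 high concentrations, with blue points for batch 1, orange points for batch 2 and a short line for the mean of each batch. All acetaminophen and valproic acid wells of both genes lie above the vehicle wells, and with diclofenac 1 Fos well of batch 2 lies at 193 CPM while the other wells lie between 4.48 and 10.995 CPM.

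Jun, the AP-1 partner of Fos, rose with acetaminophen alone among the 14 high concentrations and fell with 9. Vehicle wells read 38.1, 37.3 and 38.9 CPM in batch 1 and 30.7 to 43.1 CPM (median 37.2) in batch 2. Acetaminophen at 10000 µM gave 58.0, 45.7 and 48.9 CPM in batch 1 and 78.9, 62.2 and 71.9 CPM in batch 2, all above vehicle (L2FC 1.11 ± 0.14, adjusted p = 2.58e-13). With 4000 µM ranitidine Jun read 11.7, 8.52 and 10.5 CPM in batch 1 and 12.3, 14.8 and 10.4 CPM in batch 2. Every one of those wells was below vehicle (L2FC −1.65 ± 0.15, adjusted p = 2.11e-19). Naproxen at 2000 µM followed (L2FC −1.46 ± 0.15, adjusted p = 2.67e-16), and then 10000 µM caffeine (L2FC −1.25 ± 0.15, adjusted p = 3.56e-13). With 10000 µM valproic acid Jun was lower (L2FC −1.23 ± 0.15, adjusted p = 2.56e-13), in the wells in which Fos and Junb were higher.

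Fosl1 encodes Fra-1, a Fos family member with a later and longer response than Fos. It varied most between wells, with a median coefficient of variation of 31.3% among the 3 wells of a group, and vehicle read 61.9, 46.8 and 82.3 CPM in batch 1 and 30.4 to 54.0 CPM (median 35.1) in batch 2. With 10000 µM caffeine Fosl1 read 8.71, 9.05 and 3.24 CPM in batch 1 and 15.9, 4.06 and 1.84 CPM in batch 2. All were below vehicle despite that spread (L2FC −2.62 ± 0.32, adjusted p = 3.95e-13). It was also lower with 200 µM WY14643 (L2FC −2.03 ± 0.30, adjusted p = 2.23e-09) and 300 µM indomethacin (L2FC −1.73 ± 0.30, adjusted p = 1.59e-07). The rises were with 15 µM ketoconazole, at 98.5, 119 and 115 CPM in batch 1 and 55.7, 95.1 and 56.6 CPM in batch 2, which did not overlap with vehicle (L2FC 0.92 ± 0.26, adjusted p = 0.00142). With 10000 µM isoniazid the L2FC was 0.80 ± 0.26 (adjusted p = 0.00994), with overlapping wells in batch 1. That pair was not called with wells summed per rat (adjusted p = 0.0880) or against vehicle of the same plate in batch 2 (adjusted p = 0.0677).

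Egr1, a zinc finger transcription factor switched on by ERK signalling through the serum response element, had the largest falls of the set. Its vehicle level differed between the rats, at 1202, 1176 and 1260 CPM in batch 1 and 443 to 687 CPM (median 594) in batch 2. With 4000 µM ranitidine Egr1 read 111, 81.1 and 118 CPM in batch 1 and 66.3, 91.0 and 60.1 CPM in batch 2. All wells were below vehicle, with an L2FC of −3.17 ± 0.23 (adjusted p = 3.08e-27). With 400 µM diclofenac it read 121, 123 and 69.5 CPM in batch 1 and 429, 109 and 42.7 CPM in batch 2. The highest of these is the well that stood apart, and the L2FC was −2.35 ± 0.22 (adjusted p = 2.32e-19) with it and −3.43 ± 0.19 (adjusted p = 4.14e-38) without it.

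Ketoconazole at 15 µM lowered Egr1 by an L2FC of −2.10 ± 0.22 (adjusted p = 4.65e-16), and it was lower with 10 of the 14 chemicals in all. Acetaminophen gave its 1 call upward (L2FC 0.50 ± 0.20, adjusted p = 0.0185), with wells of 2129, 1208 and 1640 CPM in batch 1 and 443, 449 and 492 CPM in batch 2. Those wells overlapped with vehicle in both batches, and with library size in place of TMM scaling the L2FC was 0.095 (adjusted p = 0.673). It was not called with wells summed per rat either (adjusted p = 0.188). That change of scale moved the median of all genes by −0.41 for this treatment, by 0.27 for 10000 µM valproic acid, and by −0.23 and −0.28 for 200 and 8 µM WY14643. With 10000 µM valproic acid all Egr1 wells were above vehicle in both batches, with an L2FC of 0.33 ± 0.20 that was not called by TMM scaling (adjusted p = 0.133) and 0.62 (adjusted p = 0.00479) by library size.

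Ier2, a small nuclear protein that acts in transcription, fell with 11 of 14 chemicals and by smaller steps than Egr1. Vehicle wells read 156, 190 and 131 CPM in batch 1 and 134 to 160 CPM (median 142) in batch 2. With 300 µM indomethacin it read 59.8, 71.6 and 68.3 CPM in batch 1 and 49.6, 45.6 and 45.0 CPM in batch 2. No well overlapped with vehicle (L2FC −1.32 ± 0.12, adjusted p = 9.96e-20). Ketoconazole at 15 µM (L2FC −1.20 ± 0.12, adjusted p = 2.30e-17) and caffeine at 10000 µM (L2FC −0.80 ± 0.12, adjusted p = 6.86e-10) also left no overlap. With 10000 µM acetaminophen Ier2 was higher (L2FC 0.66 ± 0.11, adjusted p = 5.60e-08), although the wells of 173, 247 and 212 CPM in batch 1 and 148, 177 and 154 CPM in batch 2, which are not TMM-scaled, overlapped with vehicle.

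Ier3 encodes a stress-inducible protein that acts on cell survival. Vehicle wells read 170, 191 and 163 CPM in batch 1 and 139 to 178 CPM (median 159) in batch 2. With 10000 µM caffeine it read 31.2, 48.9 and 37.0 CPM in batch 1 and 34.2, 31.1 and 43.4 CPM in batch 2, all below vehicle (L2FC −2.02 ± 0.15, adjusted p = 2.67e-27). Ier3 was lower with 9 chemicals, among them 400 µM diclofenac (L2FC −1.62 ± 0.14, adjusted p = 4.29e-21) and 200 µM WY14643 (L2FC −1.48 ± 0.14, adjusted p = 2.82e-18). With 2 µM doxorubicin, which damages DNA, Ier3 read 293, 266 and 292 CPM in batch 1 and 194, 224 and 230 CPM in batch 2. Those wells were all above vehicle (L2FC 0.58 ± 0.13, adjusted p = 0.000358), though the pair was not called with wells summed per rat (adjusted p = 0.0579). Isoniazid at 10000 µM gave an L2FC of 0.45 ± 0.13 (adjusted p = 0.00458), with overlapping wells in batch 1, and this pair too was not called per rat (adjusted p = 0.0986).

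Myc, the growth and ribosome biogenesis factor, was lower with 4 of the 14 high concentrations and higher with 2. Vehicle wells read 49.7, 37.5 and 55.5 CPM in batch 1 and 38.7 to 55.0 CPM (median 43.2) in batch 2. With 10000 µM valproic acid it read 19.1, 19.5 and 14.5 CPM in batch 1 and 9.75, 12.7 and 16.3 CPM in batch 2, all below vehicle (L2FC −1.86 ± 0.19, adjusted p = 1.77e-17). With 10000 µM acetaminophen it read 7.97, 9.38 and 8.46 CPM in batch 1 and 18.6, 22.5 and 20.5 CPM in batch 2. These were also all below vehicle (L2FC −1.19 ± 0.18, adjusted p = 2.30e-09), so that Myc was lower in both treatments in which Fos and Junb were higher. With 400 µM diclofenac Myc read 49.0, 60.3 and 49.8 CPM in batch 1 and 115, 127 and 105 CPM in batch 2. Only the batch 2 wells were all above vehicle (L2FC 0.74 ± 0.16, adjusted p = 2.55e-05), and without the well that stood apart in Fos the L2FC was 0.62 ± 0.17 (adjusted p = 0.000701). Ketoconazole at 15 µM gave 0.43 ± 0.17 (adjusted p = 0.0228). This call was lost with library size only (adjusted p = 0.0643), per rat (0.238), against vehicle of the same plate in batch 2 (0.0673), by the ST assay (0.0929), in batch 1 by itself (0.250) and without replicate 2 (0.292). Myc was also lower with 200 µM WY14643 (L2FC −0.61 ± 0.17, adjusted p = 0.00169) and 100 µM sulfasalazine (L2FC −0.50 ± 0.17, adjusted p = 0.0146), but neither was called per rat (adjusted p = 0.101 and 0.224).

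Dusp1, the phosphatase that inactivates MAP kinases, was lower with 13 of 14 high concentrations and higher with none. Vehicle wells read 629, 693 and 529 CPM in batch 1 and 894 to 1176 CPM (median 1035) in batch 2. Acetaminophen at 10000 µM left 88.2, 152 and 122 CPM in batch 1 and 214, 266 and 154 CPM in batch 2. No well overlapped with vehicle (L2FC −1.92 ± 0.12, adjusted p = 1.01e-32), in the treatment with the highest Fos, Junb and Jun L2FC. Ketoconazole at 15 µM (L2FC −1.29 ± 0.12, adjusted p = 5.51e-19) and 400 µM diclofenac (L2FC −1.25 ± 0.12, adjusted p = 4.73e-19) followed. Simvastatin at 60 µM made no call, with 677, 709 and 574 CPM in batch 1 and 946, 969 and 933 CPM in batch 2, which overlapped with vehicle (L2FC 0.05 ± 0.11, adjusted p = 0.825). The 95% interval of that L2FC ran from −0.18 to 0.27.

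**Figure D3:**
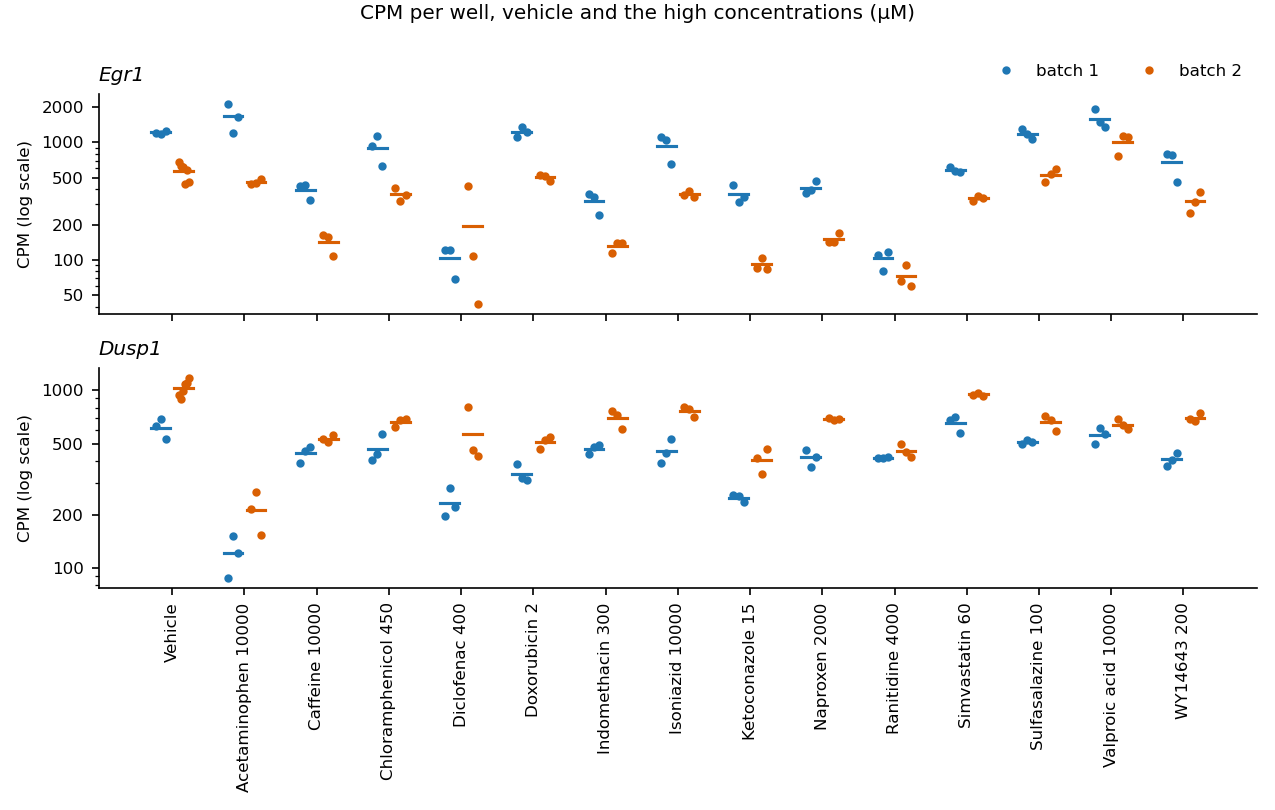
CPM of Egr1 and Dusp1 in every WT well (log axis) for vehicle and the 14 high concentrations, with blue points for batch 1, orange points for batch 2 and a short line for the mean of each batch. Egr1 drops from a mean of 1213 to 103 CPM in batch 1 and from 567 to 72.5 CPM in batch 2 with ranitidine, and Dusp1 is lowest with acetaminophen, at means of 121 and 211 CPM.

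Nr4a1, an orphan nuclear receptor, was near the floor of the assay in these cells. It had at most 5 reads (0.775 CPM) in any WT well and at most 13 reads in any ST well, and no test was made.

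At low concentrations, with TMM scaling and all wells, members were called with 2 chemicals. Of 126 pairs, 9 were lower (7.14%) and 0 higher by edgeR, against 4.50% and 4.91% of all gene tests. At an unadjusted p under 0.05, 4 pairs were higher, and DESeq2 called 0 higher. WY14643 at 8 µM lowered 6 members, Dusp1, Fosl1, Ier2, Ier3, Junb and Myc, where 28.2% of all genes were lower. The fall of Ier2 was in batch 2 alone (L2FC 0.054 in batch 1 and −0.71 in batch 2). Valproic acid at 400 µM lowered Fosl1, Ier3 and Myc, where 14.0% of all genes were. In the other 12 treatments edgeR with TMM scaling called 0 of 108 pairs, against 3.87% of all gene tests in either direction. There 12 pairs had an unadjusted p under 0.05 and DESeq2 called 1. That was Ier2 with 12 µM indomethacin, which was also nearest the threshold by edgeR (L2FC −0.35 ± 0.12, adjusted p = 0.0503). Without the diclofenac well that stood apart edgeR called it too (L2FC −0.34, adjusted p = 0.0398), which made 10 calls with 3 chemicals. With library size in place of TMM scaling edgeR called 13 pairs lower. Among them were Ier2 and Ier3 with 12 µM indomethacin (adjusted p = 0.00458 and 0.0457) and 80 µM naproxen (adjusted p = 0.0263 and 0.0408). Of the 9 calls, 5 were called in each batch by itself and 6 with wells summed per rat. Those lost per rat were Ier2 and Junb with 8 µM WY14643 (adjusted p = 0.224 and 0.194) and Ier3 with 400 µM valproic acid (adjusted p = 0.168).

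With 8 µM WY14643, Ier3, Fosl1 and Dusp1 were lower in both rats. Ier3 read 58.1, 49.5 and 48.7 CPM in batch 1 and 65.5, 43.4 and 55.4 CPM in batch 2 at 8 µM, all below vehicle (L2FC −1.36 ± 0.14, adjusted p = 5.53e-16). Fosl1 read 13.7, 17.1 and 16.1 CPM in batch 1 and 24.0, 17.7 and 16.8 CPM in batch 2, also all below vehicle (L2FC −1.14 ± 0.29, adjusted p = 0.000323). Dusp1 read 335, 335 and 288 CPM in batch 1 and 483, 502 and 526 CPM in batch 2, again with no overlap (L2FC −0.73 ± 0.12, adjusted p = 3.25e-08). Between 200 and 8 µM, Egr1 was the only member of 9 whose level differed by the test with TMM scaling (L2FC −0.74 ± 0.22, adjusted p = 0.0247). With the size factors of DESeq2 2 members were lower at 200 µM, and with library size 1 was lower and 1 higher. With TMM scaling the 8 members other than Egr1 differed by −0.88 ± 0.33 (Fosl1) to 0.37 ± 0.13 (Dusp1) on the log2 scale. Their adjusted p were 0.0596 and above, so they were not shown to be alike at both concentrations.

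With valproic acid Myc was already lower at 400 µM. Myc read 36.2, 22.0 and 24.6 CPM in batch 1 and 18.0, 16.5 and 15.1 CPM in batch 2, all below vehicle (L2FC −1.04 ± 0.18, adjusted p = 5.49e-07). Fosl1 was lower too, at 43.7, 17.0 and 34.4 CPM in batch 1 and 11.5, 16.2 and 11.4 CPM in batch 2 (L2FC −1.15 ± 0.28, adjusted p = 0.000564). Fos and Junb, which rose at 10000 µM, had an L2FC of 0.52 ± 0.35 and −0.08 ± 0.23 at 400 µM, neither called.

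**Figure D4:**
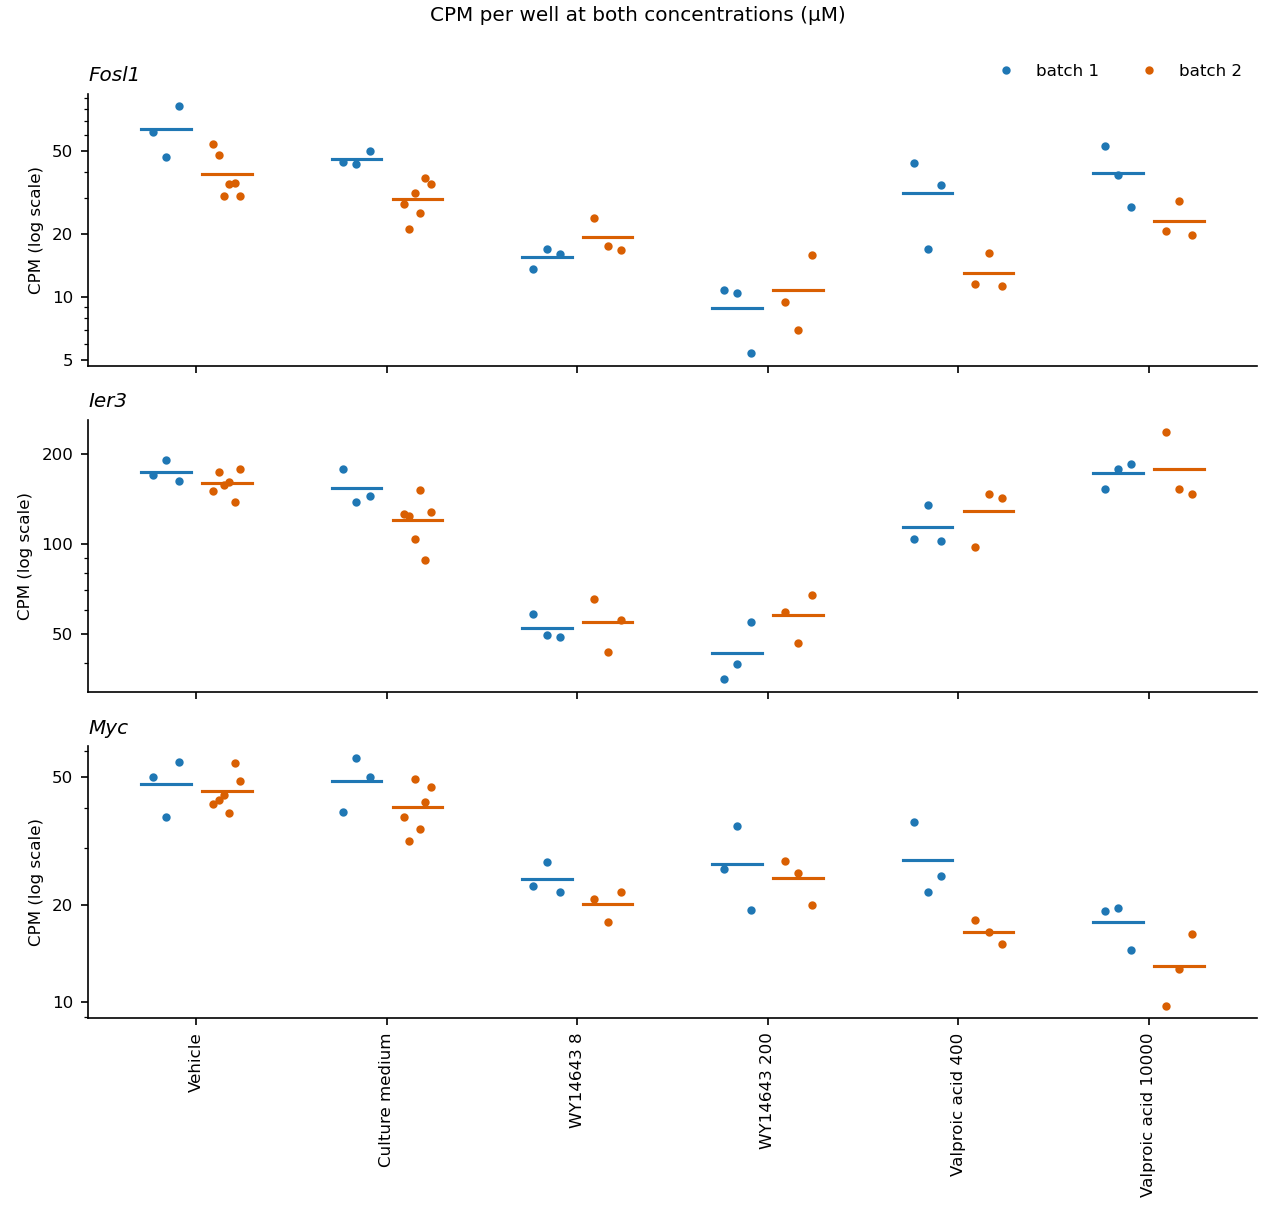
CPM of Fosl1, Ier3 and Myc in every WT well (log axis) for vehicle, culture medium, WY14643 at 8 and 200 µM and valproic acid at 400 and 10000 µM, with blue points for batch 1, orange points for batch 2 and a short line for the mean of each batch. All Ier3 wells at 8 µM WY14643 lie between 43.4 and 65.5 CPM, below the vehicle wells, and Myc is below vehicle at both valproic acid concentrations.

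Compared directly with the low concentration of the same chemical, the high concentration was lower in 54 of 126 pairs and higher in 12, against 20.7% and 20.1% of all gene tests. Dusp1 was lower at the high concentration with 11 of 14 chemicals, Ier2 and Ier3 with 8 each and Egr1 and Jun with 7 each. The culture medium without DMSO gave 0 of 9 members called by edgeR, against 12.6% of all genes. There 3 members had an unadjusted p under 0.05 and DESeq2 called 0. Egr1 was nearest, with 300 to 413 CPM (median 354) in the 6 batch 2 wells, all below the 443 to 687 CPM of vehicle, and an L2FC of −0.41 ± 0.18 (adjusted p = 0.121), which was called without the diclofenac well that stood apart (−0.41, adjusted p = 0.0322). Vehicle wells of batch 2 came from 2 plates, and for Fos, Jun, Egr1, Ier2 and Dusp1 the wells of the 2 plates did not overlap, with means of 641 and 493 CPM for Egr1 and 8.18 and 5.09 CPM for Fos.

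In some pairs the response differed between the 2 batches, which differ in rat, library construction and sequencing run. A test of the difference between batches in the L2FC was called for 11 of 252 pairs of member and treatment, against 2.44% of all gene tests. The differences were with diclofenac for Fos, Egr1, Ier2 and Myc, and with other chemicals for Dusp1, Ier2 and Myc. Without the diclofenac well that stood apart, the difference for Fos went from 3.19 to −0.41 (adjusted p = 0.725), for Egr1 from 1.96 to 0.59 (adjusted p = 0.236) and for Ier2 from 0.79 to 0.51 (adjusted p = 0.0676). The difference for Myc was 1.16 with the well and 1.14 (adjusted p = 0.00350) without it. Without the well the count of called pairs was again 11, so other pairs were called then.

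**Figure D5:**
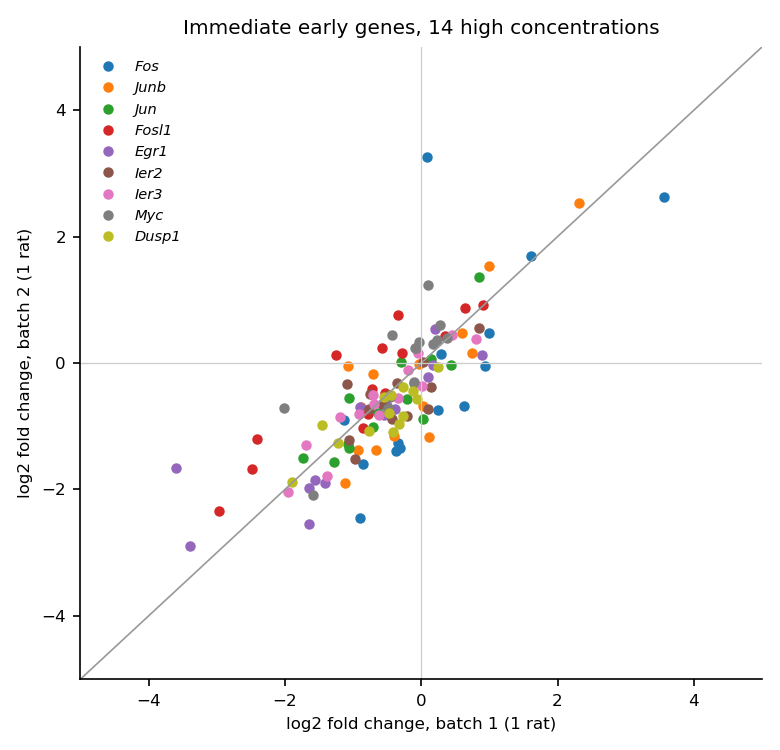
L2FC against vehicle in batch 1 (x axis) and batch 2 (y axis) for the 9 tested members at the 14 high concentrations, each point being 1 member under 1 chemical, coloured by member. Of the 85 called pairs 83 have the same sign in both batches, and Fos with diclofenac (0.09 in batch 1, 3.26 in batch 2) lies far from the diagonal.

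The ST assay, run on the same lysates, had enough reads for a test of 8 members. Of 112 pairs at high concentrations, 72 were called by the WT assay, 70 by the ST assay and 65 by both, all 65 with the same sign. Called or not, 102 of these 112 pairs had the same sign in both assays. The median absolute difference in L2FC between the assays was 0.122 and the largest 0.605. At low concentrations 8 pairs were called by the WT assay, 9 by the ST assay and 7 by both, all 7 with the same sign. Called or not, 91 of 112 pairs there had the same sign. Over all genes of the ST assay, at high and low concentrations together, 17137 of 49280 tests were called. Fos with 10000 µM acetaminophen had an ST L2FC of 3.22 and Egr1 with 4000 µM ranitidine one of −3.01. Both assays read the same wells, so the ST assay is a check of the measurement and not of the rats.

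Other genes of the pathway were read from lists chosen by function, beside 25.4% higher and 25.5% lower over all gene tests at high concentrations. Among the other AP-1 proteins, 34 of 126 pairs (9 genes tested) were higher and 36 lower at high concentrations. Atf3, a stress-induced partner of Jun proteins, was higher with 10000 µM acetaminophen (L2FC 3.14 ± 0.21, adjusted p = 1.24e-30) and lower with 8 µM WY14643 (L2FC −1.64 ± 0.23, adjusted p = 3.18e-10). Fosl2, the closest relative of Fosl1, was higher with 10000 µM caffeine (L2FC 1.81 ± 0.14), where Fosl1 was at its lowest, and lower with 200 µM WY14643 (L2FC −1.61 ± 0.17). Mafg, a small Maf protein, was higher in 6 treatments and lower in 6. With 8 µM WY14643, 6 of the 9 genes were lower and 1 higher, where 2877 (28.2%) of 10191 genes were lower and 2851 higher.

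Of other immediate and delayed early genes, 119 of 308 pairs (22 genes) were lower and 69 higher. Egr2, a relative of Egr1, was called lower in 14 of 28 treatments, with its lowest L2FC at 2000 µM naproxen (−3.46 ± 0.26), and higher with 10000 µM valproic acid (0.86 ± 0.18). Cyr61, a secreted matrix protein, was lower in 15 treatments and higher in none, and Zfp36l1, which speeds mRNA decay, was lower in 18 and higher in none. In the EGF and ERK pathway, 102 of 210 pairs (48.6%) of the ERK feedback genes and 42 of 84 (50.0%) of the EGF receptor ligands and receptors were lower, against 25.5% of all gene tests. Hbegf, a ligand of the EGF receptor, was lower in 14 treatments and higher in 2, and Btc, another ligand, was lower in 15 and higher in 0. The receptor gene Erbb3 went mostly the other way, higher in 11 and lower in 3. Dusp4, a phosphatase for ERK, was lower in 13 and higher with 2 µM doxorubicin (L2FC 1.07 ± 0.25). Dusp10, a phosphatase for p38 and JNK kinases, was lower in 12 and higher in 2, and the transcription factor gene Etv4 lower in 8 and higher in 6.

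Genes known as targets of the members were called in both directions. AP-1 target genes were lower in 57 of 154 pairs and higher in 38, and Plau, the urokinase gene, was lower in 13 treatments and higher in 1. Cd44, a hyaluronan receptor, was lower in 11 and higher in 5. MYC target genes were higher in 64 of 168 pairs and lower in 31, and Tfrc, the transferrin receptor, was higher in 15 treatments, most with 10000 µM acetaminophen (L2FC 3.42 ± 0.13), where Myc was lower. Ncl, which encodes nucleolin, was higher in 10 treatments and lower in 2, and Nme1, a nucleoside diphosphate kinase gene, lower in 12 and higher in 2. With 400 µM valproic acid 9 of 12 MYC target genes were lower and 1 higher, where 14.0% of all genes were lower. Among MYC partners and antagonists 30 of 84 pairs were higher and 16 lower, and Max, the partner of MYC, was higher in 12 treatments and lower in none. Mga, another partner of MAX, was higher in 8 and lower in none, and Mxd4, a MYC antagonist, lower in 14 and higher in 1. Targets of the glucocorticoid receptor, which dexamethasone activates in all wells, were higher in 34 of 84 pairs and lower in 25. Pck1, a gluconeogenic enzyme gene also induced by cyclic AMP, reached an L2FC of 10.59 ± 0.26 with 10000 µM caffeine and was higher in 15 treatments and lower in 1. Tat, an enzyme of tyrosine breakdown, was higher in 10 and lower in 6, and Fkbp5 higher in 6 and lower in 5.

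The patterns of the members over all conditions differed. Over the 60 means of 30 conditions in 2 batches, each batch centred on its own mean, Pearson's r of log2 CPM was 0.76 for Junb and Ier2, 0.73 for Egr1 and Ier2, 0.73 for Jun and Egr1 and 0.67 for Fos and Junb. For Fos and Myc r was −0.65, and −0.74 without the diclofenac well that stood apart. The genes outside the set with the most similar pattern were Gas6 and Cdc42ep2 for Ier3 (r 0.90 and 0.89), St5 and Irf3 for Dusp1 (0.86 and 0.85), Cd59 and Ppl for Egr1 (0.86 and 0.85) and Basp1 and Rcan1 for Fosl1 (0.85 and 0.84). For Fos the closest were Zswim6 and Nptxr (0.79 and 0.78), for Junb Peli1 and Dynll1 (0.82 and 0.81), for Myc Eif6 and Pter (0.84 and 0.83), for Jun Prkag1 and Sptan1 (0.83 each) and for Ier2 Epb41l2 and Ldb1 (0.79 and 0.76). Without the diclofenac well that stood apart, the closest became Dexi and Ppp1r13b for Fos (0.81 each) and Prdx4 and Calm2 for Jun (0.83 each), and the second closest became Ctnnb1 for Junb (0.81) and Pnp for Ier2 (0.78). For the other 5 members the same genes came first. These means share libraries and vehicle wells, so the values are a description of likeness over these conditions.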

How the data were processed

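The 372 libraries (each well by WT and ST assay) were deposited by the authors as raw read counts per probe, aligned with STAR 2.5.3a per the labels, which name build rn6. The members and lists were chosen with earlier results of these data known. Probes of a gene were added, CPM were computed per library total, and WT genes averaging 10 counts or more per well entered 1 edgeR 4.0.16 quasi-likelihood fit (R 4.3.3, TMM) over all WT wells, with treatment and batch as terms. Batch pairs the groups, since the study's methods give each batch its own rat. P-values were adjusted by Benjamini-Hochberg within each comparison, and wells of a rat are technical replicates, so p-values largely measure spread between wells, which is technical. CPM are not TMM-scaled, whereas L2FC are. Named treatments were up to 3 with the largest and 3 with the most negative L2FC of a member, called and with the same sign in both batches. Named genes of other lists were the 3 called in most treatments, of which 1 is not reported here. Alternatives were DESeq2 1.42.0, its size factors, no filter, each batch, wells summed per rat, same-plate vehicle, only the compared wells, no replicate block, the ST assay, leave-one-out and an absolute L2FC of at least 1. Library size scaling and leaving out the diclofenac well were added after seeing the data. The count fit was checked on simulated data.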

Additional observations from a re-analysis of the deposited data

Results flagged for a closer look

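In 11 pairs of a member and a treatment the L2FC differed between the 2 batches by the edgeR test of the batch by treatment interaction (batch 2 minus batch 1, Benjamini-Hochberg adjusted). With 400 µM diclofenac the difference was 3.19 for Fos (adjusted p = 4.76e-05), 1.96 for Egr1 (adjusted p = 5.92e-06), 0.79 for Ier2 (adjusted p = 0.000434) and 1.16 for Myc (adjusted p = 0.00101). Of these 4, Myc alone was still called without the batch 2 well that held 193 CPM of Fos. The count over all pairs stayed at 11 without that well, as other pairs were then called. Myc also differed with 10000 µM acetaminophen, by 1.30 (adjusted p = 0.00139), with an L2FC of −2.01 in batch 1 and −0.71 in batch 2. With 4000 µM ranitidine Myc differed by 0.85 (adjusted p = 0.0196), with −0.42 in batch 1 and 0.45 in batch 2.

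Ier2 differed by −0.78 with 100 µM sulfasalazine (adjusted p = 0.00368) and by −0.72 with 8 µM WY14643 (adjusted p = 0.00890), and in both treatments all of its wells were below vehicle in batch 2 but not in batch 1. The L2FC of Dusp1 was below 0 in both rats and lower in batch 2, by −0.70 with 4000 µM ranitidine (adjusted p = 0.00880), by −0.65 with 10000 µM valproic acid (adjusted p = 0.0229) and by −0.58 with 10000 µM caffeine (adjusted p = 0.0483). Vehicle levels of Dusp1 averaged 617 CPM in batch 1 and 1029.8 CPM in batch 2. The cause of these differences was not tested, and each rat is 1 batch, so rat, isolation, library construction and sequencing run cannot be told apart.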

How the results depend on the processing

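The 14 high-concentration calls upward became 9 in batch 1 by itself, 9 with wells summed per rat and 6 at an absolute L2FC of at least 1. They were 12 to 15 when a replicate was left out and 17 without the diclofenac well. The 71 calls downward became 47 per rat and 30 at that L2FC, and were 62 to 71 with a replicate left out and 73 without the diclofenac well. At low concentrations the 0 upward calls became 3 and the 9 downward calls 16 with only the compared wells, and 4 downward calls had that L2FC. Library size only gave 13 downward calls there. Medium against vehicle had 0 calls, and 1 in batch 2 by itself, by the ST assay, with library size only or without the diclofenac well, and 5 with only the compared wells. The 66 calls of high against low concentration became 32 at that L2FC. The 11 batch differences became 4 at that L2FC and 4 to 11 with a replicate left out, the 4 being without replicate 3. Without the replicate block (batch, the rat) there were 14 calls upward and 58 downward at high and 8 downward at low concentrations. Over all genes the main fit called 36279 tests higher and 36388 lower at high concentrations, and 6999 and 6426 at low ones. Of 285348 such tests at high and low concentrations together, 58284 were called per rat, 57320 in batch 1 by itself and 24810 at that L2FC. Calls over all genes thus fell in these settings too, and not only those of the members.

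Fos with 400 µM diclofenac reversed without replicate 1 (−0.31, in a range of −0.31 to 3.02 over the replicates left out) and without that 1 well (−0.26). Of the 94 calls, DESeq2 and its size factors kept 94 each, no filter 90, no replicate block 80, wells summed per rat 62 and batch 1 by itself 62, with the same sign. With 2 rats the biological spread is known only roughly, and Fos and Junb rest on few reads per well. The causes of these shifts were not tested, apart from fewer samples or a stricter threshold by construction.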
